A study of Mus musculus with 6 samples.

Results

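Integrins are the transmembrane receptors through which cells hold on to the extracellular matrix, and the 10 subunit genes described here are Itga1, Itga3, Itga5, Itga6, Itga7, Itgav, Itgb1, Itgb3, Itgb4 and Itgb5. They were chosen by symbol as α and β subunits of the laminin, fibronectin and collagen receptors, and 10 of 10 were found among the 13283 genes of the deposited table. RNA was measured in 6 libraries of an immortalized mouse brown preadipocyte (BAT) line taken through brown adipocyte differentiation. The 3 Scr libraries came from Cas9-expressing cells given a scrambled sgRNA, which the labels call WT, and the 3 MICT1 KO libraries from cells given an sgRNA against MICT1, a microprotein of brown fat. The MICT1 KO cells were sorted pools and not single clones, and the labels do not say which sgRNA pool gave which library. Every culture, control or KO, went through the same adipogenic differentiation and received 10 µM forskolin, which raises cAMP, for 6 h at day 6. No culture without forskolin and no undifferentiated culture is compared here.

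An integrin is a pair of one α and one β chain, and the pair decides the ligand. The α3, α6 and α7 chains pair with β1 to bind laminin, the network protein of basement membranes, and α6 also pairs with β4, the β chain of epithelial hemidesmosomes. The α5β1, αvβ3 and αvβ5 receptors bind fibronectin, vitronectin and other proteins that carry the RGD tripeptide, and α1β1 binds collagen, with laminin as a further ligand. Each mature adipocyte is wrapped in a basement membrane, and preadipocytes in culture are known to exchange α5 for α6 as they become adipocytes. The 10 genes were therefore described as 4 laminin-binding subunits (Itga3, Itga6, Itga7 and Itgb4), 4 of the RGD class (Itga5, Itgav, Itgb3 and Itgb5), the collagen-binding Itga1, and Itgb1, which serves laminin, collagen and fibronectin receptors alike.

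The values are a normalized signal per gene, which reads as estimated reads divided by a size factor per library. The 6 libraries correspond to between 15437380 and 17917646 estimated reads in genes, so an abundant subunit such as Itgb1 rested on many reads and Itgb4 on a few. The KO labels were not checked on the targeted gene, since MICT1 was not analysed here. Adipocyte marker levels differed between the groups. All 11 adipocyte markers tested were lower in MICT1 KO libraries, with a median log2 fold change of -3.40, and their summed signal ran from 128889 to 154025 in Scr and from 15026 to 21623 in MICT1 KO libraries. Adipoq, the gene of the adipocyte hormone adiponectin, was at 624 ± 139 (SD, n = 3) in Scr cells and 5.32 ± 2.24 after MICT1 KO, and Pparg, the master regulator of adipogenesis, at 3742 ± 467 and 754 ± 66.7. Of 7 preadipocyte markers, 4 were tested and 2 rose, Ly6a (log2 fold change 1.39) and Pdgfrb (0.48), while Dlk1 (-3.47) and Pdgfra (-0.19) fell, and the summed signal of the 5 listed overlapped, from 4363 to 5011 in Scr and from 4693 to 4893 in MICT1 KO libraries. Of 8 macrophage markers 3 were tested and 0 passed in limma-trend, with 0 of 3 at an unadjusted p under 0.05 as well. Of 8 skeletal muscle markers Des and Acta1 were tested, at mean signals of at most 58.8, and neither passed or had an unadjusted p under 0.05. Of 7 endothelial markers Cdh5 was tested and rose from 8.71 to 29.9, and the 6 epithelial markers were not analysed here. In such bulk RNA, fewer cells of a type and less RNA per cell cannot be told apart, and the part that the loss of adipocyte RNA has in the integrin values below was not tested.

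Across the family, 7 of the 10 subunits differed between MICT1 KO and Scr libraries. The 3 laminin-binding α chains were lower, while Itga5, Itgb1, Itgb3 and Itgb5 were higher. Itga1, Itgav and Itgb4 did not pass. The test was limma-trend on log2(signal + 1) over the 12507 genes that had a signal of 10 or more in 3 libraries or more, and a gene passed at an adjusted p under 0.05 by the Benjamini-Hochberg method over all of them. All 10 subunits met that filter. Since 56.9% of all tested genes passed, 28.5% being higher and 28.3% lower, 7 of 10 is near the share in the whole table, and the number of calls is no result about the integrins. What differed among the 10 subunits as grouped here was the direction by ligand class. The shared Itgb1, which rose, is in none of the ligand classes. Itgb8, an αv partner outside the 10, fell (log2 fold change -1.05). Of the 4 laminin-binding subunits 0 rose and 3 fell, with a median log2 fold change of -0.91, and of the 4 RGD-class subunits 3 rose and 0 fell, with a median of 0.37. The median over all tested genes was -0.0053. The difference between the classes was not tested as such, because the subunits were grouped with earlier results of these data known.

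**Figure D1:**
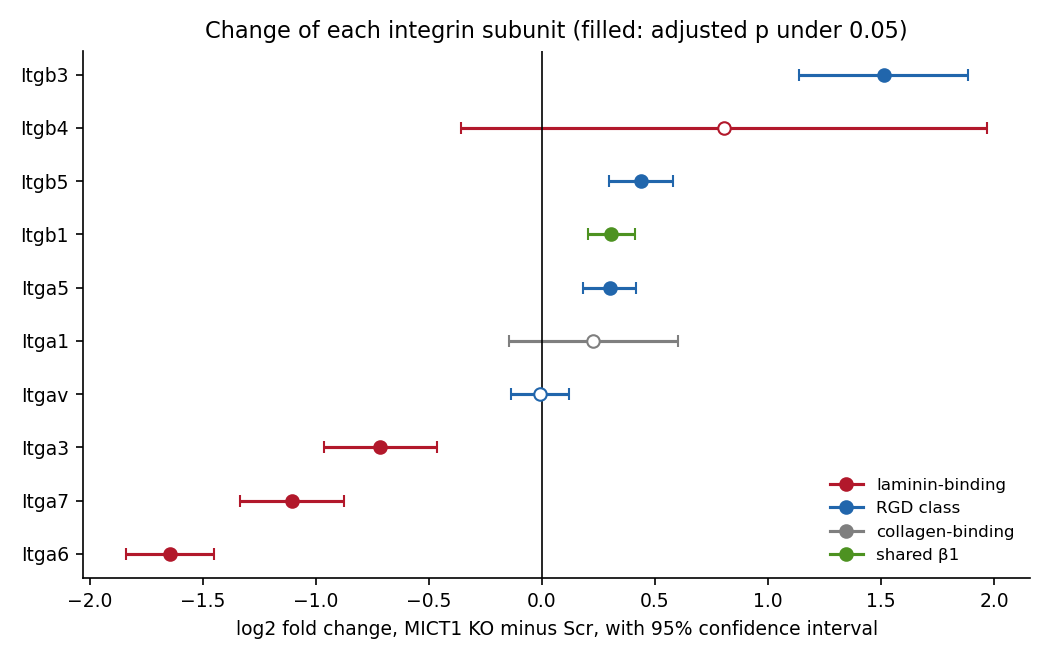
The log2 fold change of each of the 10 subunits (x axis, MICT1 KO minus Scr, with its 95% confidence interval from limma-trend), sorted by size and coloured by ligand class, with filled points for an adjusted p under 0.05. Itga6 (-1.64), Itga7 (-1.11) and Itga3 (-0.71) lie to the left of 0, Itgb3 (1.51) lies farthest to the right, and the wide interval of Itgb4 crosses 0.

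Itga6 encodes the α6 chain, the laminin receptor subunit that appears as preadipocytes differentiate. The gene lies on chromosome 2 from 71745616 to 71858416 (GRCm38, + strand), with 31 exons once overlapping ones are merged. Its signal was 1138, 1009 and 1165 in Scr cells, against 321, 355 and 381 after MICT1 KO. The groups were far apart, and the highest MICT1 KO library was well under the lowest Scr library. The mean fell from 1104 ± 83.8 in Scr to 353 ± 30.2 in MICT1 KO cells (SD, n = 3 each), or 3.13-fold, a difference of -1.64 on the log2 scale (SE 0.093, limma-trend adjusted p = 3.18e-12). Of all tested genes, 2.59% had a lower log2 fold change than Itga6. The Itga6 transcripts encode alternative cytoplasmic tails, which values per gene do not separate.

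Itga7 (chromosome 10 from 128933818 to 128958282, + strand) encodes α7, the main laminin receptor chain of skeletal muscle, which pairs with β1. Its signal was 787, 706 and 783 in Scr cells, against 424, 327 and 314 after MICT1 KO. The groups did not overlap, and KO replicate 1 was the highest of its group. The mean fell from 759 ± 45.4 in Scr to 355 ± 60.3 in MICT1 KO cells (SD, n = 3 each), a difference of -1.11 on the log2 scale (SE 0.11, limma-trend adjusted p = 2.63e-08). The muscle markers Des and Acta1 had mean signals between 15.8 and 58.8 in either group and did not pass (limma-trend adjusted p = 0.454 and 0.358), and the other 6 muscle markers were not analysed here.

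Itga3 encodes α3, which with β1 binds laminins of the epithelial and vascular basement membrane, and lies on chromosome 11 from 95044474 to 95076801 (- strand). Its signal was 359, 436 and 366 in Scr cells, against 229, 244 and 231 after MICT1 KO. The MICT1 KO libraries lay close together and below every Scr library. The mean fell from 387 ± 42.3 in Scr to 235 ± 8.43 in MICT1 KO cells (SD, n = 3 each), a difference of -0.71 on the log2 scale (SE 0.12, limma-trend adjusted p = 3.39e-05).

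Itgb4 (chromosome 11 from 115974709 to 116008412, + strand), the β chain that pairs with α6, was near the lower limit of detection. Its signal was 6.92, 6.49 and 12.2 in Scr cells, against 21.0, 7.38 and 21.8 after MICT1 KO. KO replicates 1 and 3 were above every Scr library, but KO replicate 2 was not, and the groups overlapped. It met the filter with 3 libraries, 1 of them Scr. The log2 fold change of 0.81 had a 95% confidence interval from -0.36 to 1.97 (limma-trend adjusted p = 0.229), which includes changes of either sign. An opposite-strand non-coding gene shares 537 of its exon bases, and the sources used here do not say whether reads were counted by strand.

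**Figure D2:**
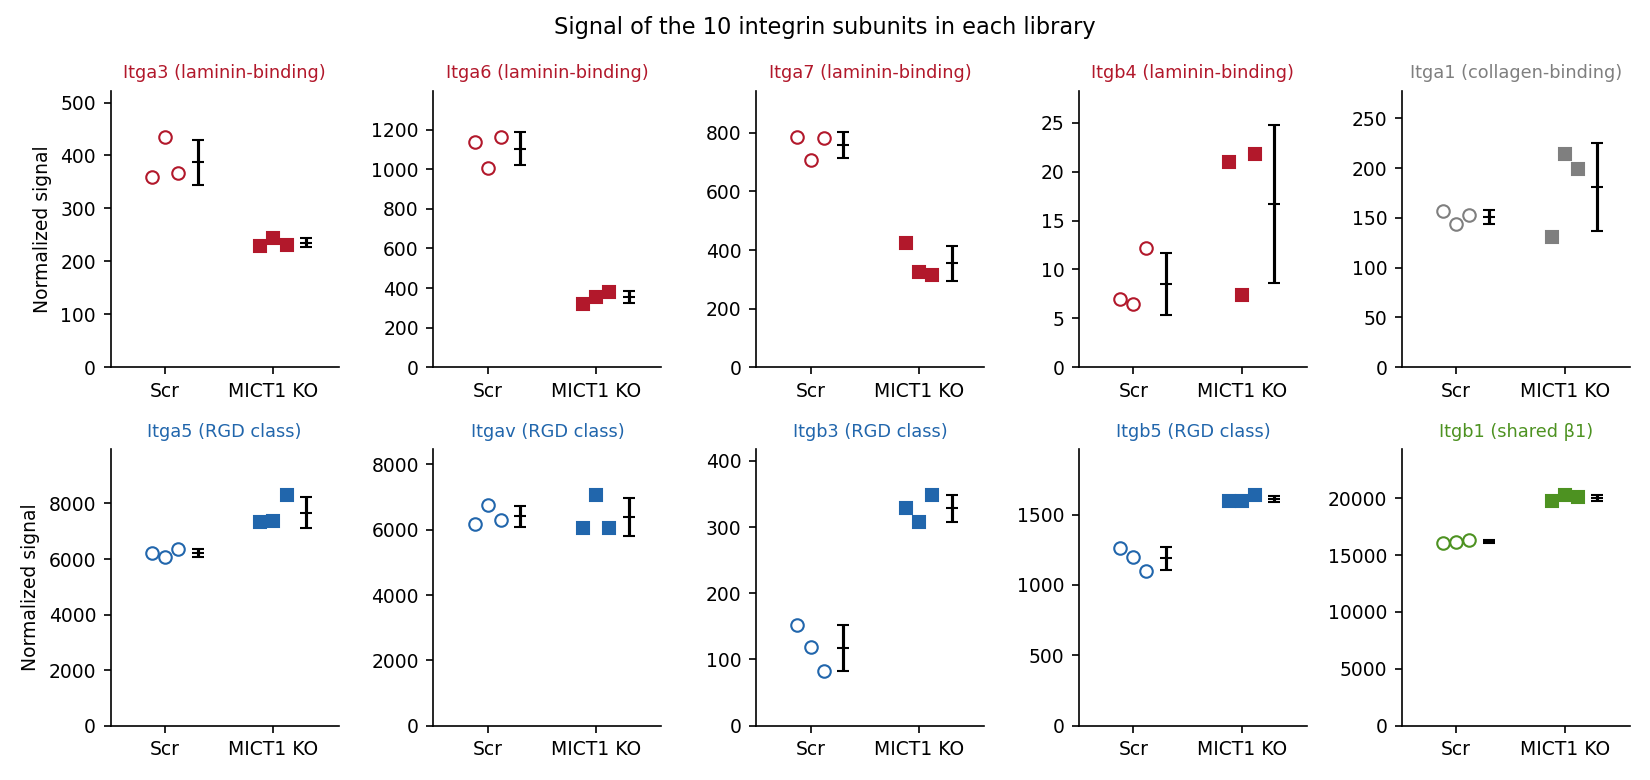
The normalized signal (y axis, from 0, on its own scale in each panel) of each subunit in the 3 Scr libraries (open circles) and the 3 MICT1 KO libraries (filled squares), with the mean and SD in black beside them. The MICT1 KO points lie below all Scr points for Itga3, Itga6 and Itga7 and above them for Itga5, Itgb1, Itgb3 and Itgb5. The ranges of the groups overlap for Itga1, Itgav and Itgb4.

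In the RGD class the subunit that moved most was Itgb3 (chromosome 11 from 104608000 to 104670476, + strand), which encodes β3, the partner of αv in the vitronectin receptor. Its signal was 151, 120 and 82.4 in Scr cells, against 329, 308 and 348 after MICT1 KO. Every MICT1 KO library was far above the highest Scr library, while the Scr libraries varied more among themselves than the MICT1 KO libraries did. The mean rose from 118 ± 34.5 in Scr to 328 ± 20.3 in MICT1 KO cells (SD, n = 3 each), or 2.79-fold, a difference of 1.51 on the log2 scale (SE 0.18, limma-trend adjusted p = 3.65e-07). Of all tested genes, 3.91% had a higher log2 fold change.

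Itgb5 (chromosome 16 from 33829665 to 33949338, + strand) encodes β5, another partner of αv and a vitronectin receptor chain. Its signal was 1263, 1201 and 1101 in Scr cells, against 1597, 1597 and 1638 after MICT1 KO. The groups did not overlap, and the MICT1 KO libraries differed little among themselves. The rise from 1189 ± 81.8 (SD, n = 3) to 1611 ± 23.5 (SD, n = 3) was a difference of 0.44 on the log2 scale (SE 0.068, limma-trend adjusted p = 1.25e-05).

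Itgav (chromosome 2 from 83724397 to 83806916, + strand), the α chain that β3 and β5 share, did not follow its β partners. Its signal was 6184, 6773 and 6287 in Scr cells, against 6047, 7061 and 6057 after MICT1 KO. Replicate 2 was the highest library in each group, and the groups overlapped. The log2 fold change was -0.0086 with a 95% confidence interval from -0.14 to 0.12 (limma-trend adjusted p = 0.917). An opposite-strand transcript shares 634 of its exon bases.

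Itga5 (chromosome 15 from 103344286 to 103366763, - strand) encodes α5, which with β1 forms the classical fibronectin receptor. Its signal was 6223, 6086 and 6351 in Scr cells, against 7336, 7369 and 8300 after MICT1 KO. All MICT1 KO libraries were above all Scr libraries, with KO replicate 3 the highest. The mean rose from 6220 ± 132 in Scr to 7669 ± 547 in MICT1 KO cells (SD, n = 3 each), or 1.23-fold, a difference of 0.30 on the log2 scale (SE 0.056, limma-trend adjusted p = 0.000124). The change passed, but 27.7% of the tested genes rose more.

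Itgb1 (chromosome 8 from 128685654 to 128733200, + strand), which encodes the β1 chain of most of the receptors named here, rose as well. Its signal was 16059, 16190 and 16356 in Scr cells, against 19764, 20283 and 20112 after MICT1 KO. The spread within a group was far smaller than the gap between the groups. The mean rose from 16202 ± 149 in Scr to 20053 ± 265 in MICT1 KO cells (SD, n = 3 each), or 1.24-fold, a difference of 0.31 on the log2 scale (SE 0.050, limma-trend adjusted p = 2.25e-05).

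The collagen receptor chain Itga1 (chromosome 13 from 114953096 to 115101964, - strand) had signals of 157, 144 and 153 in Scr cells, against 131, 214 and 199 after MICT1 KO. KO replicate 1 was below every Scr library and the other two were above, so the groups overlapped. The log2 fold change was 0.23 (95% confidence interval from -0.14 to 0.60, limma-trend adjusted p = 0.290). Without KO replicate 1 it was 0.45 and passed (limma-trend adjusted p = 0.0294). A gene model on the same strand shares 685 exon bases with Itga1, so its value is uncertain.

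The 7 subunits that passed were those whose groups did not overlap, against 62% of all tested genes. The methods of the study set limits of 1.8-fold, a p under 0.05 and a maximum RPKM of 4, and do not say whether that p was adjusted. With an unadjusted p, Itga6 and Itga7 were past the fold and p limits as lower and Itgb3 as higher, whereas Itga3, Itga5, Itgb1 and Itgb5 did not reach the fold. Itgb3 did not reach the RPKM limit, with 3.63 RPKM in its highest library.

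To compare levels between subunits, signal was divided by exon length and by the sum of the library, which gives RPKM. On this scale Itgb1 was the highest subunit in both groups, at 243 ± 3.30 RPKM (SD, n = 3) in Scr cells, against 301 ± 5.70 RPKM (SD, n = 3) after MICT1 KO. It was followed by Itga5 (77.0 ± 2.42 and 95.3 ± 7.20 RPKM, SD, n = 3), Itgav (36.5 ± 1.28 and 36.4 ± 3.42 RPKM) and Itgb5 (20.4 ± 1.58 and 27.8 ± 0.530 RPKM). These 4 kept their places, and their values did not overlap with those of the next subunit in either group.

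The order below them changed. In Scr libraries Itga6 had rank 5 at 7.48 ± 0.653 RPKM (SD, n = 3), Itga7 rank 6 at 5.73 ± 0.420, Itga3 rank 7 at 4.14 ± 0.394 and Itgb3 rank 8 at 1.22 ± 0.370, each without overlap with its neighbour. In MICT1 KO libraries Itgb3 had rank 5 at 3.41 ± 0.215 RPKM (SD, n = 3), apart from Itga7 (2.69 ± 0.438). Itga7, Itga3 (2.52 ± 0.0994) and Itga6 (2.39 ± 0.219) overlapped there and could not be ranked. Itga1, at 0.497 ± 0.0303 and 0.597 ± 0.149 RPKM, and Itgb4, at 0.0744 ± 0.0277 and 0.146 ± 0.0705 RPKM, were the lowest in both groups. RPKM rests on the length of all annotated exons, 18599 bases for Itga1, and would be higher for a gene whose cells use shorter transcripts.

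As a share of the summed RPKM of the 6 α chains, the laminin-binding Itga3, Itga6 and Itga7 made up 13.4, 12.8 and 13.4% in Scr cells, against 5.86, 5.36 and 5.11% after MICT1 KO. Itga6 alone went from 5.69% ± 0.420 (SD, n = 3) to 1.71% ± 0.0747 (SD, n = 3) and Itga5 from 58.6% ± 1.03 to 68.1% ± 2.68. The laminin-binding sum was 17.3 ± 0.674 RPKM (SD, n = 3) in Scr cells, against 7.60 ± 0.168 RPKM (SD, n = 3) after MICT1 KO, whereas Itga5 and Itgav together were at 114 ± 1.15 and 132 ± 6.77 RPKM. In both groups the RGD-class α chains were the larger part, at 86.4% and 94.1%. Among the β chains, Itgb1 held 91.8% ± 0.672 (SD, n = 3) in Scr cells, against 90.6% ± 0.213 after MICT1 KO, and Itgb3 0.462% ± 0.136 and 1.03% ± 0.0665.

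**Figure D3:**
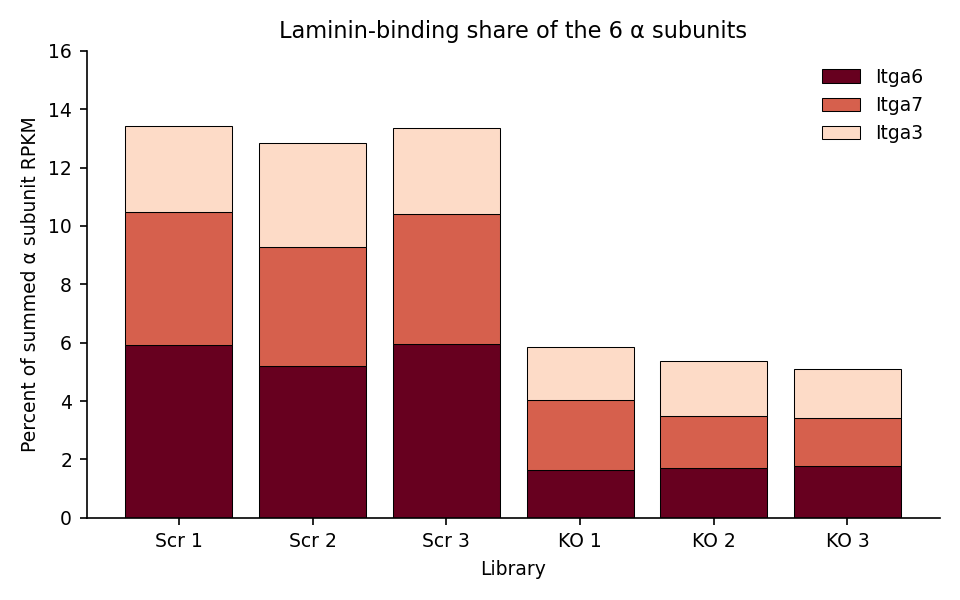
Percent of the summed RPKM of the 6 α subunits (y axis, from 0) taken by Itga6, Itga7 and Itga3, stacked, in each of the 6 libraries (x axis). The stacks reach 12.8 to 13.4% in the Scr libraries and 5.11 to 5.86% in the MICT1 KO libraries.

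Ratios of 2 subunits within a library do not depend on how libraries were scaled against each other. The ratio of Itga6 to Itga5, the pair known to be exchanged in adipogenesis, was 0.09999, 0.0906 and 0.1003 in Scr cells, against 0.0239, 0.0263 and 0.0251 after MICT1 KO, on the RPKM scale. It was 3.86-fold lower in MICT1 KO libraries, and the 2 groups were each tight. The ratio of Itga6 to Itgb1 was 3.88-fold lower. By contrast, the ratio of Itga5 to Itgb1 was 0.318 ± 0.00572 (SD, n = 3) and 0.316 ± 0.0220 (SD, n = 3), with overlapping groups (exact permutation test, two-sided, p = 0.9).

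Among the αv partners, the ratio of Itgb3 to Itgav was 0.0335 ± 0.0104 in Scr cells, against 0.0944 ± 0.0133 after MICT1 KO (SD, n = 3 each, RPKM scale), and that of Itgb5 to Itgav was 0.561 ± 0.0490 and 0.767 ± 0.0723. Itgb5 remained the more abundant partner, and its ratio to Itgb3 was 17.6 ± 4.23 in Scr cells, against 8.17 ± 0.416 after MICT1 KO (SD, n = 3 each). Within the laminin receptors the ratio of Itga3 to Itga6 was 0.559 ± 0.107 in Scr cells, against 1.06 ± 0.0881 after MICT1 KO, and that of Itga7 to Itga6 was 0.767 ± 0.0164 and 1.14 ± 0.294 (SD, n = 3). Both ratios were higher in every MICT1 KO library than in any Scr library. The ratio of Itgb4 to Itga6 was 5.74-fold higher in MICT1 KO libraries on the few reads of Itgb4.

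Of the 10 ratios compared, 8 did not overlap between the groups, and the others were Itga5 to Itgb1 and Itga1 to Itga5. Each of the 8 holds a subunit that passed by itself, so this count is no separate result about the integrins. No such share was computed for ratios of other genes, while 62% of all tested single genes did not overlap. Itgb4 to Itga6 is among the 8 although the groups of Itgb4 itself overlapped. The exact permutation test (two-sided) of 3 against 3 libraries cannot go below p = 0.1, and these 8 ratios reached that p (adjusted p = 0.125 over the 10 ratios in the exact test), so none passes the threshold by this test.

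**Figure D4:**
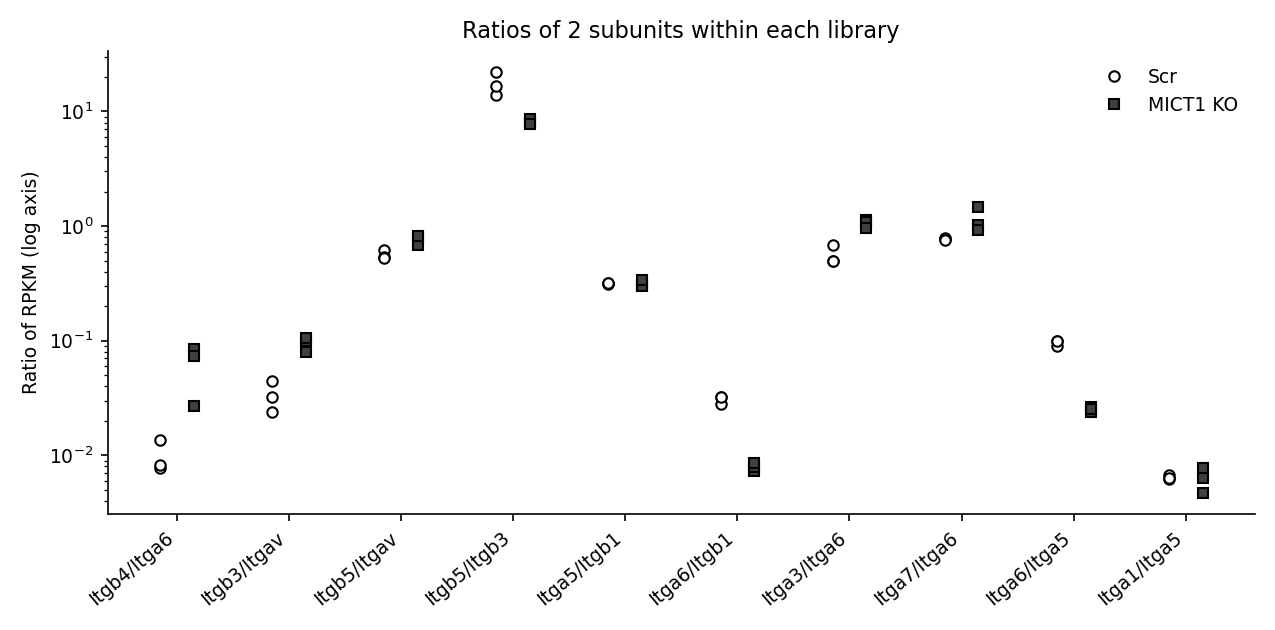
The ratio of the RPKM of 2 subunits (y axis, log scale) in each Scr library (open circles) and each MICT1 KO library (filled squares) for the 10 ratios compared. The groups overlap for Itga5 to Itgb1 and for Itga1 to Itga5 and lie apart for the other 8.

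Promoters are shown for Itga5, Itgb1 and Itgb5, which rose together, and for Itga3, which fell, because the cells had received forskolin and cAMP acts on promoters through the cAMP response element (CRE). RefSeq start sites on GRCm38.p6 gave 7 windows of 250 bases before a start for 6 of the 10 subunits, and Itga6, Itga7, Itgb3 and Itgb4 were not matched. Letters were searched on both strands, TGACGTCA for the CRE, TGANTCA for AP-1, GGAATG for TEAD and GGGCGG for the GC box, and no matches overlapped. The windows below run 5′ to 3′ on the strand of the gene and end just before the start, with the matches in capitals. They lie at chr15:103366792-103367041 (- strand), chr8:128685404-128685653 (+ strand), chr16:33829415-33829664 (+ strand) and chr11:95076715-95076964 (- strand). RefSeq and GENCODE differ in 2 of these starts. The RefSeq start of Itga5 lies outside its GENCODE gene, which ends at 103366763. The Itga3 window includes bases of its GENCODE gene, which ends at 95076801.
Itga5: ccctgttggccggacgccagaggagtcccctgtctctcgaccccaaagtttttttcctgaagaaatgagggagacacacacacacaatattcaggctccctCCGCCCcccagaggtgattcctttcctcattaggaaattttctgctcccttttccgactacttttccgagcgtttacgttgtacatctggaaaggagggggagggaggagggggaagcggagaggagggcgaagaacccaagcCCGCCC
Itgb1: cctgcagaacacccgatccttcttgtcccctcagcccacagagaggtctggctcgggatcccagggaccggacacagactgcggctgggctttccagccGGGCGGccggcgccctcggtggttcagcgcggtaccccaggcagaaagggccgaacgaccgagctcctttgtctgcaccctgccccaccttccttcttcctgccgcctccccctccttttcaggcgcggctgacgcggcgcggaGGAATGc
Itgb5: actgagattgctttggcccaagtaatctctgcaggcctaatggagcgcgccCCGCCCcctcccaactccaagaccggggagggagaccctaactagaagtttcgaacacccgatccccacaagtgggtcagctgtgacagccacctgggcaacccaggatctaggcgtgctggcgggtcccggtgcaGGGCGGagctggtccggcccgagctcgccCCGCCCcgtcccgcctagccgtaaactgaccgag
Itga3: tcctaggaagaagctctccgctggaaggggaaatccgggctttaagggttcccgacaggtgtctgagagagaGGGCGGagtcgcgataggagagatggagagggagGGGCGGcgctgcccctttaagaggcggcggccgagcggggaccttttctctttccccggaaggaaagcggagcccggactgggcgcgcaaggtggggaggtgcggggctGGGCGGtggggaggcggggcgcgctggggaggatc

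The full CRE was found in 0 of the 7 windows and in 1.55% of the 32851 windows of all genes, and AP-1 in 0 of the 7 and in 6.75% of all. With shares this low, finding 0 in 7 windows does not set these subunits apart from other genes. The GC box was found in 5 of the 7 windows, against 32.7% of all, in the windows shown and in that of a second Itga3 start. The TEAD letters were found in 1, that of Itgb1, 7 bases before the start, against 12.6% of all. The window of Itga3, which fell, holds 3 GC boxes, as does that of Itgb5, which rose. Such matches describe the letters and no binding was measured.

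The ligands of these receptors were measured in the same libraries. Among all tested genes 28.5% were higher and 28.3% lower, and the lists below stand beside these shares. Of 12 fibronectin and other RGD-class ligand genes tested, 11 rose and 1 fell (91.7% and 8.33%), with a median log2 fold change of 0.98. Fn1, fibronectin itself and the ligand of α5β1, rose from a mean of 23247 ± 1285 in Scr to 87525 ± 8254 in MICT1 KO cells (SD, n = 3 each), a difference of 1.91 on the log2 scale (SE 0.066). Thbs1 (2.42), a thrombospondin, and Spp1 (2.31), osteopontin, which αvβ3 binds, rose more, followed by Fbn1 (1.63), Fbln5 (1.58) and Tnc (1.07), all matrix proteins. The one that fell was Npnt (log2 fold change -0.56), a ligand of α8β1, named after its value was seen.

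The laminin chains moved both ways. Of 9 tested, 4 rose and 5 fell (44.4% and 55.6%), with a median log2 fold change of -0.67. Lama4, the α4 chain of vascular and adipocyte basement membranes, fell from a mean of 1020 ± 6.58 in Scr to 58.8 ± 6.03 in MICT1 KO cells (SD, n = 3 each), a difference of -4.10 on the log2 scale (SE 0.13). The abundant chains Lamb1 (-0.81) and Lamc1 (-0.67), which are part of many laminins, fell too. Lamb2 (0.81) and Lama5 (0.43) rose. The summed signal of the laminin chains ran from 22743 to 24398 in Scr and from 14897 to 16300 in MICT1 KO libraries.

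Of 11 collagen chains tested, 4 rose and 5 fell (36.4% and 45.5%). The basement membrane collagens Col4a1 (log2 fold change -1.42) and Col4a2 (-1.33) and the microfibril collagens Col6a3 (-1.64), Col6a2 (-0.91) and Col6a1 (-0.82) fell. Col16a1 rose (1.89). The fibril collagen chains differed, and Col1a2 (0.059) and Col3a1 (-0.047) did not pass. Col1a1 (0.77), Col5a1 (0.59) and Col5a2 (0.35), named after their values were seen, rose.

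**Figure D5:**
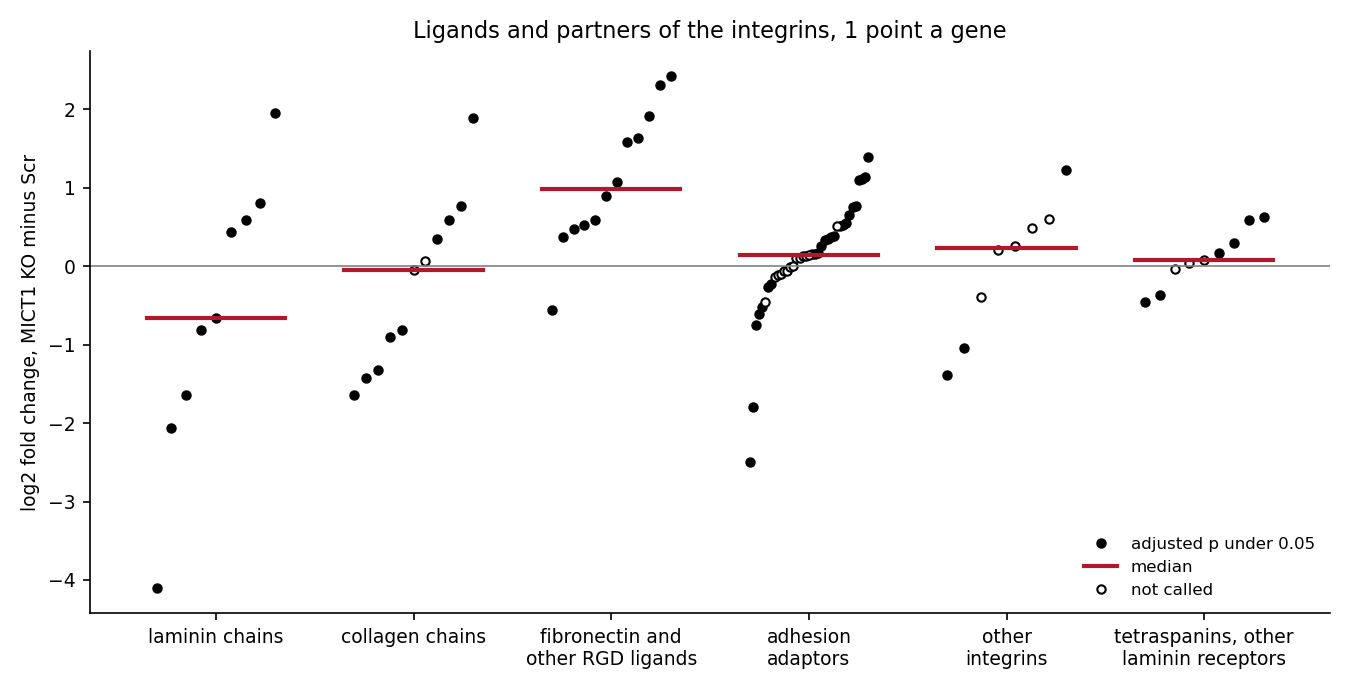
The log2 fold change (y axis, MICT1 KO minus Scr) of each tested gene of 6 lists around the integrins, 1 point a gene, filled where the adjusted p was under 0.05, with the median of the list in red. The median stands at -0.67 for laminin chains and at 0.98 for fibronectin and other RGD ligands, and at or near 0 for the collagen chains (-0.047) and the adhesion adaptors (0.14).

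Inside the cell, integrin tails are held to actin by adaptors such as talin, kindlin and the ILK complex. Of 39 adaptor genes tested, 18 rose and 7 fell (46.2% and 17.9%), with a median log2 fold change of 0.14. Tns1, a tensin that binds β tails at fibrillar adhesions, fell from a mean of 5721 ± 293 in Scr to 1014 ± 118 in MICT1 KO cells (SD, n = 3 each), a difference of -2.50 on the log2 scale (SE 0.072), and Lims2, of the ILK complex, fell as well (-1.80). Zyx (1.40), zyxin of mature focal adhesions, and Tgfb1i1 (1.14), which encodes the paxillin relative Hic-5, rose, as did the kinase Fyn (1.11) and the docking protein Dok1 (1.09). The kindlin gene Fermt2 (-0.063) and Src (-0.0064) did not pass. Among core components named after their values were seen, talin Tln1 rose (0.52), while vinculin Vcl (-0.61) and the focal adhesion kinase gene Ptk2 (-0.52) fell. Other genes of the ILK complex, also named after their values were seen, did not follow Lims2. Parva (0.37), Lims1 (0.25) and Ilk (0.16) rose, and Parvb (0.14) and Rsu1 (0.10) did not pass.

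Of 16 integrin subunits outside the 10, 8 were tested, 1 rose and 2 fell (12.5% and 25.0%). Itgb8, which with αv activates TGF-β, had signals of 125, 89.9 and 135 in Scr cells, against 54.3, 53.7 and 57.0 after MICT1 KO (log2 fold change -1.05, limma-trend adjusted p = 0.000430). Its groups did not overlap, so Itgb8 fell while the αv partners Itgb3 and Itgb5 rose. Itgb7, a β chain of lymphocyte receptors, rose from a mean of 123 ± 3.09 in Scr to 292 ± 42.3 in MICT1 KO cells (SD, n = 3 each), a log2 fold change of 1.23, while Itga4 and Itgae, its α partners, were not analysed here. Itgad fell (-1.39). Itga2 (log2 fold change -0.39), Itga2b (0.26), Itga9 (0.20), Itga10 (0.60) and Itgb2 (0.48) did not pass, at mean signals of at most 67.3, and Itga10 shares 1739 exon bases with a gene model on the same strand.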

How the data were processed

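RNA-seq of 3 Scr and 3 MICT1 KO libraries was used, grouped by sample title. Per the methods, strand-specific total RNA was sequenced and Partek software placed the reads on mm10, and the submitters' processing notes also name STAR and DESeq2. The annotation and counting model are not given in the sources used here. The authors deposited a normalized signal per gene, above 0 in every listed gene. Of the values under 20, 88.7 to 90.3% were whole multiples (within 0.01) of one step per library, too few to recover counts, so no count test was run. From the signal, log2(value + 1) was fitted with limma 3.58.1 (R 4.3.3). The fit was tested on simulated data with far fewer changed genes than were called here. Its errors under so broad a shift were not tested.

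Exon lengths and gene positions came from GENCODE vM21 on GRCm38, found for 98.9% of genes, and promoters from RefSeq on GRCm38.p6. Subunits and gene lists were chosen with earlier results of these data known. All 10 subunits are named, up to 6 of the largest called changes (mean signal of at least 100) and 2 uncalled genes per other list, every tested other integrin, and any marker, and 1 gene named by this rule is not reported here. Alternatives were other scalings, pseudocounts, filters, limma-voom, a replicate block, a 1.8-fold rule and each library left out. Proteins were not compared. With 3 cultures of one line, described as biological replicates, errors do not cover other lines or pools.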

Additional observations from a re-analysis of the deposited data

How the results depend on the processing

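The 7 subunits that passed also passed, in the same direction, in all 14 alternative fits that tested them. The 14 fits were scaling by library size or upper quartile, pseudocounts of 0.5 and 5, no filter, a filter at a maximum RPKM of 4 (where Itga1, Itgb3 and Itgb4 were not tested), limma-voom, the replicate block and each of the 6 libraries left out. Over these fits the log2 fold change ran from -1.71 to -1.58 for Itga6, -1.24 to -1.02 for Itga7, -0.76 to -0.63 for Itga3, 0.24 to 0.34 for Itga5, 0.30 to 0.34 for Itgb1, 0.39 to 0.49 for Itgb5 and 1.28 to 1.71 for Itgb3. The exception among the others was Itga1, which passed without KO replicate 1 (0.45) and ran from 0.093 to 0.45. Itgb4 ran from 0.56 to 1.28 and Itgav from -0.083 to 0.031 without passing. A limit of 1.8-fold with an unadjusted p under 0.05, which changes both the fold and the p asked for, called 2189 genes against 7113. It called 1 subunit higher against 4. Itga5 (log2 fold change 0.30), Itgb1 (0.31), Itgb5 (0.44) and Itga3 (-0.71) met that p but not the fold. Over all genes, the part of each limit was not tested. With an RPKM of 4 the called genes were 5471 of 8497 tested. With a library left out, the subunits higher in MICT1 KO numbered 4 to 5 and the called genes 6383 to 6678. The replicate numbers did not pair the libraries (correlations of same-numbered deviations of -0.024, -0.015 and 0.064), and the replicate block called 7055 genes, with the same 7 subunits. Upper quartile scaling moved the median log2 fold change of all genes to 0.030. Itga6 (-1.61), Itga7 (-1.07) and Itga3 (-0.68) still passed there. It moved the subunits that rose upward too, so it is no check on the rises of Itga5, Itgb1 and Itgb5. Itgb4, at a signal of at most 21.8 in any library, moved most without KO replicate 2 (1.28, limma-trend adjusted p = 0.0647). With 3 libraries a group, the exact test of the ratios cannot go below p = 0.1.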

Other observations

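Of 9 tested genes of tetraspanins, other laminin receptors and their linkers, 4 rose and 2 fell, with a median log2 fold change of 0.076. These are 44.4% and 22.2% of the list, against 28.5% higher and 28.3% lower of all tested genes. Cd151, the tetraspanin bound to α3β1 and α6β1, fell from a mean of 1166 ± 75.1 in Scr to 907 ± 89.7 in MICT1 KO cells (SD, n = 3 each), a log2 fold change of -0.36 (limma-trend adjusted p = 0.000678), and Cd9 fell by 0.46 on the log2 scale. Cd81 (0.29), the ribosomal protein and laminin receptor gene Rpsa (0.58) and the hemidesmosome linkers Dst (0.63) and Plec (0.17) rose, while Dag1, dystroglycan (-0.043), and Cd63 (0.076) did not pass. Among collagen receptors that are not integrins, Mrc2, which takes up collagen, rose from a mean of 1512 ± 140 in Scr to 4198 ± 289 in MICT1 KO cells (SD, n = 3 each), a log2 fold change of 1.47. Ddr2, a kinase receptor of fibril collagens, rose by 0.61, and Ddr1 (-0.15) did not pass.

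Itgad, annotated as an α chain of leukocyte receptors, had signals of 745, 669 and 530 in Scr cells, against 260, 223 and 252 after MICT1 KO, while its β partner Itgb2 was at 8.92 ± 5.50 (SD, n = 3) and 12.3 ± 5.03 (SD, n = 3). The macrophage markers listed summed to between 104 and 162 in all 6 libraries and none of those tested passed. Among the genes whose exons overlap those of Itgad in the annotation is Cox6a2, named after its value was seen, which shares 70 bases on the opposite strand and moved the other way, from 34.2 ± 9.89 to 63.0 ± 14.3 (SD, n = 3, log2 fold change 0.87, limma-trend adjusted p = 0.0167). Larger exon overlaps with Itgad are those of a pseudogene on the same strand (330 bases) and of opposite-strand non-coding genes (388 and 102 bases). These genes were not analysed here. Which transcripts gave the Itgad signal was not tested.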
